A study of Mus musculus with 400 samples.

Results

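The kinesin, dynein and dynactin genes described here are the 63 genes whose symbols follow the Kif, Klc, Dync, Dynl and Dctn naming patterns, out of 24754 genes. They comprise 37 kinesin heavy chain genes, 4 kinesin light chain genes, 16 dynein subunit genes and 6 dynactin genes. Of these, 39 reached a mean of 10 CPM (a gene's counts scaled to an equal total in every cell) over the mouse and gate profiles and were tested, among 9169 genes tested in all. The other 24 fell below that level and are described by their levels alone.

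Kinesins and cytoplasmic dynein are motors that walk along microtubules and burn ATP to do so. Most kinesins carry vesicles, mitochondria and other cargo towards the plus ends, which in an axon means away from the cell body, and cytoplasmic dynein with its partner complex dynactin carries endosomes and survival signals back towards it. Sensory neurons of the dorsal root ganglion have very long axons and make almost all of their protein in the cell body, so they depend on both directions of transport.

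The study sorted single tdTomato-positive cells from dorsal root ganglia of cervical levels C1 to C8 of naive mice aged 6 to 12 weeks. All 6 mice carried Nav1.8-Cre with the R26CAG-floxStop-tdTomato reporter, so the cells share one genotype, no treatment was given, and the mice are called Blue, Red, Control, Control1, Control2 and Control6 after their labels. Nav1.8-Cre marks cells in which the sodium channel gene Scn10a drove Cre at some point, so most nociceptors are covered and neurons outside that lineage are not. Sequencing was done in 4 runs: Blue and Red formed run 1, Control run 2, Control1 and Control2 run 3, and Control6 run 4, so run and mouse cannot be told apart in runs 2 and 4.

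Of 394 cell columns, 371 had at least 500 genes and were kept, with a median of 30366 recovered counts and a range of 918 to 324984. Cells were gated by marker genes in CPM: Mrgprd at 200 (non-peptidergic nociceptors), Mrgpra3 at 50 and Sst or Nppb at 100 (2 kinds of itch neuron), Th at 100 (low-threshold C-fibre touch neurons), Calca at 2000 with Tac1 at 1000 (peptidergic nociceptors) and Nefh at 500 (neurofilament-rich neurons). Exactly 1 gate was passed by 329 cells, which are used below: 17 in the Nefh gate, 81 in the Calca and Tac1 gate, 44 in the Mrgpra3 gate, 45 in the Sst or Nppb gate, 34 in the Th gate and the rest in the Mrgprd gate. A mouse entered a gate with at least 3 cells, which gave 6 mice for the Mrgprd and the Calca and Tac1 gates, 4 for the Sst or Nppb gate, 2 each for the Mrgpra3 and Th gates (Blue and Red), and 1 for the Nefh gate (Control). Summed CPM of 5 neuronal markers lay between 6208 and 10473 in every profile. The summed satellite glial markers averaged 4377 CPM in Nefh cells, where 15 of 17 cells exceeded 1000 CPM, against 1267 CPM in Calca and Tac1 cells, 811 in Mrgpra3 cells, 464 in Sst or Nppb cells, 409 in Mrgprd cells and 818 in Th cells. Summed Schwann cell markers were 2116 and 2135 CPM in the 2 Th profiles, against 147 to 1081 CPM in all other profiles. In Th cells Pmp22 held 1654 CPM of that sum and Mbp 444 CPM, while Prx and Mag were at 0. Summed mural cell markers were 633 and 795 CPM in the Th profiles, nearly all of it Rgs5, 416 and 420.0 CPM in the Mrgpra3 profiles and at most 36.99 CPM elsewhere. Median depth also differed, from 17052 counts in Sst or Nppb cells to 83995 in Nefh cells.

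The share of motor genes that differed between gates was close to that of all genes. By limma's moderated F test with mouse as a block, 10 of the 39 tested members (25.6%) differed between gates at an adjusted p under 0.05, against 24.5% of all genes tested. They were Kif5b, Kif5c, Kif21a, Kif23, Kif26a, Dync1i1, Dync1i2, Dynll1, Dynlt3 and Dctn1. The count was 4 without mouse Blue and 3 without mouse Red, where the share of all genes called was 11.3% and 11%. edgeR's quasi-likelihood test on recovered counts called 22 members (56.4%), all 10 of the above among them, against 54.1% of all genes. The 12 further members called by edgeR were Kif1a, Kif2a, Kif3b, Kif5a, Kif16b, Kif22, Kif26b, Klc1, Dync2li1, Dctn4, Dctn5 and Dctn6. Each gate was then set against the mean of the other 5 gates, on the log2(CPM + 5) scale, which understates differences of low genes.

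By gate, the members called were few. In the Calca and Tac1 gate 1 member was higher (background 5.57% of genes tested) and 3 were lower (background 4.32%). In the Mrgpra3 gate 1 was higher (1.21%) and 0 were lower (0.927%, 3 members or 7.69% in either direction at an unadjusted p under 0.05, as were 8.88% of all genes, and 6 members by edgeR, which called 18.7% of all genes). In the Sst or Nppb gate 4 were higher (6.38%) and 5 lower (13%). In the Mrgprd gate 4 were higher (6.71%) and 1 lower (5.43%). In the Th gate 1 was higher (3%) and 1 lower (3.44%). In the Nefh gate, with 1 mouse, limma called 0 higher (0.447%) and 0 lower (0.36%), 5 members (12.8%) had an unadjusted p under 0.05, as did 8.23% of all genes, and edgeR called 3 (7.69%), against 14.5% of all genes. Leaving out Blue, or leaving out Red, gave 1 call in the Calca and Tac1 gate, 0 in the Mrgpra3 gate, 1 in the Sst or Nppb gate, 2 in the Mrgprd gate and 1 in the Th gate, with at most 6.83% of all genes called in any of these gates. The Calca and Tac1 gate had 2 calls without Control2, and the Mrgpra3 gate 0 without Control1. The median log2 difference of the 39 tested members was 0.29 in the Mrgprd gate, where that of all genes tested was 0.09. It was −0.14 in the Calca and Tac1 gate (all genes −0.01), −0.06 in the Sst or Nppb gate (all genes −0.17), 0.07 in the Mrgpra3 gate (all genes −0.03), 0.10 in the Nefh gate (all genes 0.14) and −0.09 in the Th gate (all genes −0.00).

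**Figure D1:**
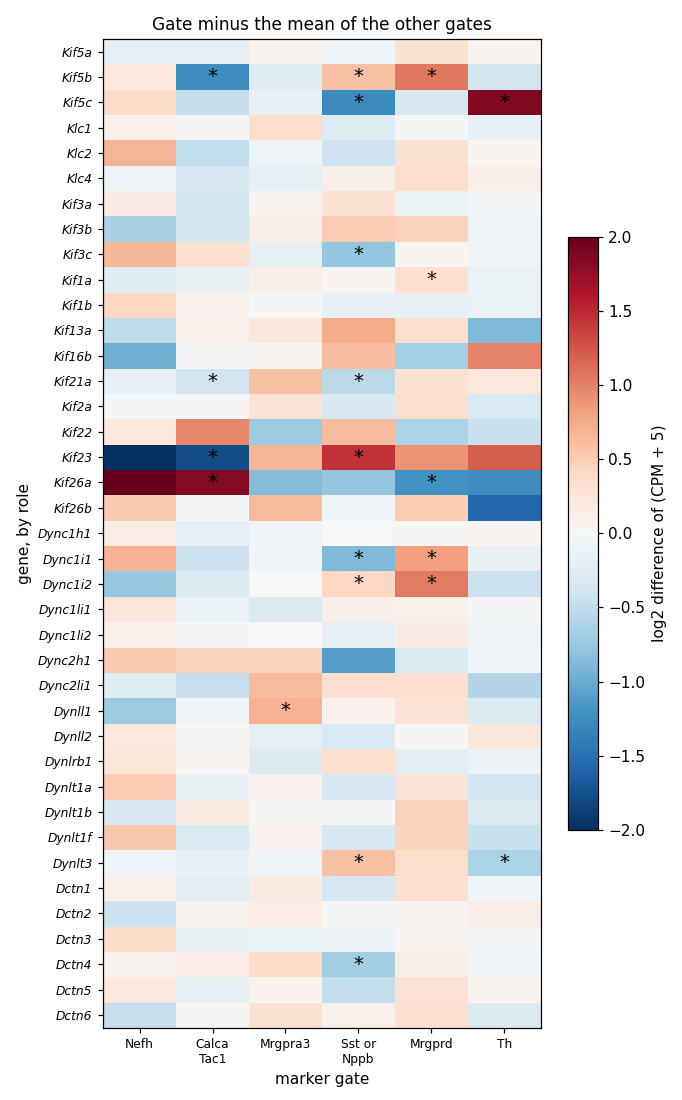
Log2 difference of (CPM + 5) between each marker gate and the mean of the other 5 gates (columns) for the 39 tested motor genes (rows, by role); red is higher in the gate, blue lower, the colours stop at 2 in either direction, and asterisks mark an adjusted p under 0.05 by limma. Kif5b has asterisks in 3 gates, the row of Dync1h1 is pale throughout, and the Nefh column has no asterisk.

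Kinesin-1, the main anterograde motor of axons, has 3 alternative heavy chains, Kif5a and Kif5c, which are neuron-enriched, and Kif5b, which most cell types make. Kif5b had the smallest p of all members in the F test (limma adjusted p = 2.68e-08) and Kif5c the third smallest (2.17e-05). Kif5b was 1757, 1807, 1831, 2077, 1896 and 1998 CPM in the Mrgprd cells of Blue, Red, Control, Control1, Control2 and Control6. In the Calca and Tac1 cells of those mice, in the same order, it was 485, 499, 664, 469, 467 and 429 CPM. All 6 Mrgprd values lay above every other profile, and all 6 Calca and Tac1 values lay below every other profile. The Sst or Nppb cells held 1613, 1629.5, 1044 and 1691 CPM of Kif5b in Blue, Red, Control and Control1. Levels were 908 and 883 CPM in the Mrgpra3 cells of Blue and Red, 782 and 909.6 CPM in their Th cells, and 1136 CPM in the Nefh cells of Control. The order was therefore Mrgprd, Sst or Nppb, Nefh, Mrgpra3, Th, and Calca and Tac1, with Mrgpra3 and Th overlapping and the Nefh value inside the Sst or Nppb range.

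Against the mean of the other gates, Kif5b differed by 1.06 ± 0.12 in the Mrgprd gate (log2, SE; adjusted p = 3.85e-06, limma), by −1.24 ± 0.12 in the Calca and Tac1 gate (adjusted p = 7.29e-07) and by 0.59 ± 0.13 in the Sst or Nppb gate (adjusted p = 0.00352). Within single mice Kif5b was higher in Mrgprd than in Calca and Tac1 cells in 6 of 6, by 1.92 ± 0.27 on the log2 scale (SD). The Mrgprd difference was 1.01 in run 1 and 1.12 in runs 2 to 4, and the Calca and Tac1 difference −1.30 and −1.48, all past the threshold. Within the Calca and Tac1 gate, Kif5b averaged 549 CPM in the 26 cells with over 1000 CPM of satellite glial markers and 469 CPM in the 55 others. The part of glial RNA in that level was not tested. The Sst or Nppb difference was not called without Blue (0.51, adjusted p = 0.11), without Red (0.54, adjusted p = 0.092) or in runs 2 to 4 alone (0.29, adjusted p = 0.55).

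Kif5c was highest in the Th gate. It was 970.4 and 1117 CPM in the Th cells of Blue and Red. In every other profile it was at most 413 CPM, the value of the Nefh cells of Control. In the remaining gates Kif5c was 256, 299, 329.7, 286, 267 and 141 CPM in the Calca and Tac1 cells of Blue, Red, Control, Control1, Control2 and Control6. The Mrgprd cells of those 6 mice held 267, 259.5, 233, 256, 344 and 339 CPM. Values were lowest in the Sst or Nppb cells, at 150.0, 215, 136 and 156 CPM in Blue, Red, Control and Control1, and were 322 CPM in the Mrgpra3 cells of both Blue and Red. The Th gate thus stood clear of the rest, and the Sst or Nppb gate overlapped with the Control6 value of the Calca and Tac1 gate alone.

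The Th difference of Kif5c was 1.85 ± 0.26 (log2, SE; limma adjusted p = 7.73e-05) and the Sst or Nppb difference −1.28 ± 0.19 (adjusted p = 5.8e-05). The Sst or Nppb difference was past the threshold without each mouse in turn. So was the Th difference, but leaving out Blue or Red leaves 1 mouse in that gate, which is then assumed to vary like the others. Thinning every cell to 5000 counts left a Th difference of 1.69 with an adjusted p of 0.0965, and an Sst or Nppb difference of −0.92 with an adjusted p of 0.144. In run 1 alone the differences were 2.01 and −1.12, both past the threshold, and runs 2 to 4 held no Th profile and gave an Sst or Nppb difference of −1.09 (adjusted p = 0.102). Kif5c lies on chromosome 2 at 49619298 to 49774778 (plus strand, GRCm38). The other 4 mice had 1 or 2 Th cells each, too few for the fit. Their Kif5c levels, from 6 cells in all, were 1156 CPM for Control, 892 for Control1, 1221 for Control2 and 1135 for Control6. No profile of another gate, those of 1 or 2 cells included, exceeded 536 CPM. The Th cells also held the highest sums of Schwann cell and mural cell markers, given above, and the part of those cells in the Kif5c level was not tested.

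**Figure D2:**
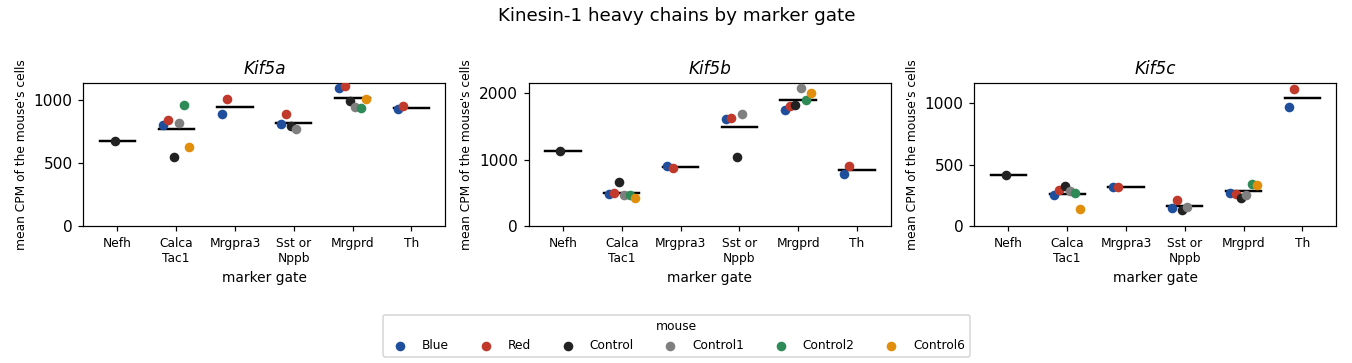
CPM of the kinesin-1 heavy chains Kif5a, Kif5b and Kif5c (linear axes from 0) in 6 marker gates; each point is the mean over one mouse's cells, coloured by mouse, and the black line is the mean over mice. Kif5b is highest in the Mrgprd gate (1757 to 2077 CPM) and lowest in the Calca and Tac1 gate (429 to 664), and Kif5c reaches 970.4 and 1117 CPM in the Th gate.

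Kif5a ranged from 671 CPM in the Nefh cells of Control to 1011 ± 72.5 CPM in Mrgprd cells (SD, n = 6 mice). It was not past the threshold of the F test (limma adjusted p = 0.0892), though edgeR called it (adjusted p = 3.18e-05). Levels were divided by exon length to compare the heavy chains with each other. Kif5b made up 56.3 ± 2.6% of the family's CPM per kb in Mrgprd cells (SD, n = 6 mice), 56.8 ± 5.3% in Sst or Nppb cells (n = 4) and 30.3 ± 5.4% in Calca and Tac1 cells (n = 6). Kif5a was the largest share in Calca and Tac1 cells, at 52.3 ± 7.3%, and in Mrgpra3 cells, at 46.2% on average over 2 mice. In Th cells the shares were 37.8% for Kif5c, 34.8% for Kif5a and 27.4% for Kif5b, also over 2 mice. Kif5c was 7.03 ± 0.99% in Sst or Nppb cells. The summed family level was 422 ± 13 CPM per kb in Mrgprd cells and 209 ± 24 in Calca and Tac1 cells. No label or header says how reads were spread along transcripts, so shares between genes rest on the assumption that counts scale with exon length, while a gene's own differences between gates do not.

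**Figure D3:**
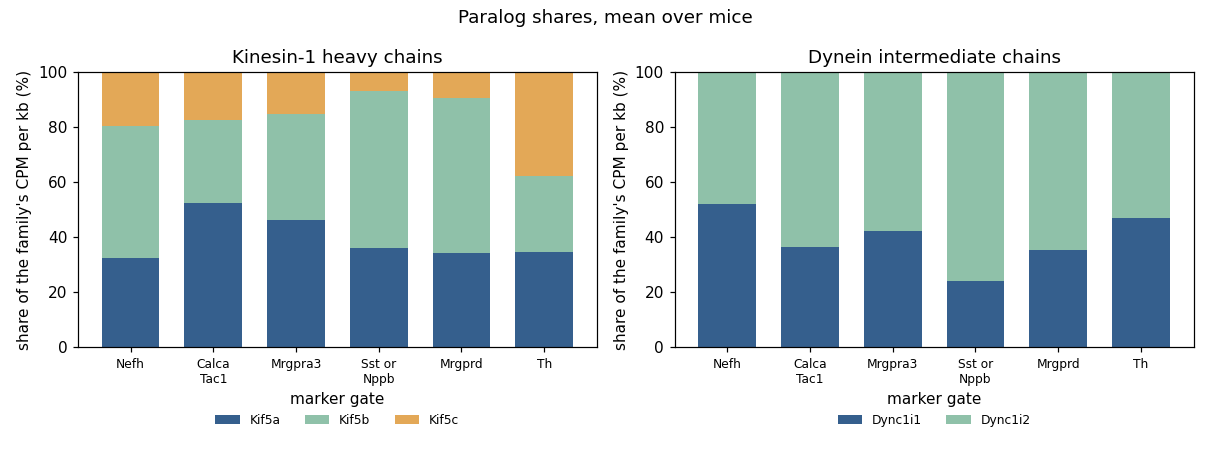
Share of each paralog (percent, stacked to 100) in the summed CPM per kb of exon of the kinesin-1 heavy chains (left) and of the dynein intermediate chains (right), as the mean over mice in each marker gate. Kif5b exceeds 56% in the Sst or Nppb and Mrgprd gates, and Kif5c reaches 37.8% in the Th gate.

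The kinesin light chains, which couple kinesin-1 to many of its cargoes, did not differ detectably by limma over all 6 mice. Klc1 was the largest of the 4 everywhere, with 84.7% to 89.3% of the family's CPM per kb, and 1080 CPM on average over profiles. Its highest level was in the Mrgpra3 cells, 1508 and 1556 CPM in Blue and Red, against 585 to 1218 CPM in every other profile (limma F test adjusted p = 0.336, edgeR 0.0287). Klc2 averaged 110 CPM and ranged from 148 CPM in the Nefh cells of Control to 82.6 ± 30.8 CPM in Calca and Tac1 cells (limma adjusted p = 0.266). In run 1 alone the limma F test called Klc1 (adjusted p = 0.000927) and Klc2 (0.0290), where 48.6% of all genes were called. DESeq2 over all mice called Klc1 (adjusted p = 0.000681) and not Klc2 (0.354). Klc4 averaged 30.97 CPM, and Klc3 had a count in 15 of 371 cells.

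Among the kinesin-3 motors, Kif1a, which hauls synaptic vesicle precursors and dense-core vesicles, and Kif1b, a carrier of synaptic vesicle precursors and mitochondria, were both abundant. Kif1a was 945.6 ± 127.2 CPM in Mrgprd cells (SD, n = 6 mice), against 711 ± 55.9 in Calca and Tac1 cells (n = 6). In the Mrgprd gate it differed from the other gates by 0.33 ± 0.10 (log2, SE; limma adjusted p = 0.039). That call rested on single mice: it was lost without Blue (adjusted p = 0.21), Red (0.30), Control (difference 0.19, adjusted p = 0.16) or Control6 (0.063), and Control held the highest Mrgprd value, 1198 CPM. Run 1 alone gave 0.19 (adjusted p = 0.105) and runs 2 to 4 gave 0.46 (adjusted p = 0.282). Kif1b ranged from 992 ± 66.4 CPM in Th cells to 1261 CPM in the Nefh cells of Control and was not past the threshold of the F test by limma (adjusted p = 0.164) or edgeR (0.289), though DESeq2 called it (0.00109). Its Mrgprd level was below its Calca and Tac1 level in 6 of 6 mice, by a mean of 0.19 log2 units, which is not a test. Kif13a and Kif16b, which move endosomes, averaged 28.6 and 45.7 CPM. A value of 407 CPM for Kif16b in the Sst or Nppb cells of Control came from 6 counts in 4 cells, the shallowest of which held 1427 counts in all. Kif1c and Kif13b were below the level tested, and Kif1c had a count in 12 of 17 Nefh cells (24.7 CPM in Control) and 14 of 81 Calca and Tac1 cells. Within the Calca and Tac1 gate it had a count in 8 of 26 cells with over 1000 CPM of satellite glial markers and in 6 of the 55 other cells. Whether glial RNA contributed to it was not tested.

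The kinesin-2 genes encode the motor of cilia that also moves membrane cargo in axons. Kif3a cannot be read with confidence: it stood at 5510 CPM over the kept cells, far above its partner Kif3b at 97.2 CPM, and 75.7% of its values were fractions of a count. It shared 1.06% of its 50-base stretches with 3 other genes, and the source of the fractions was not identified. Kif3b was not past the threshold of the F test by limma (adjusted p = 0.194), though edgeR (0.00209) and DESeq2 (0.0366) called it. It was higher in Mrgprd than in Calca and Tac1 cells in 6 of 6 mice, by 0.69 ± 0.41 log2 units (SD). Kif3c was 193, 191, 64.1 and 53.7 CPM in the Sst or Nppb cells of Blue, Red, Control and Control1, against 147 to 382 CPM in all other profiles. Its Sst or Nppb difference was −0.77 ± 0.23 (log2, SE; limma adjusted p = 0.026), but the mice of run 1 alone gave −0.06 (adjusted p = 0.72) and those of runs 2 to 4 −1.55 (adjusted p = 0.028). It was lost without Blue (adjusted p = 0.073), Red (0.082), Control (0.18) or Control1 (0.12). Neither edgeR nor DESeq2 called that difference, and their tests over all gates gave adjusted p of 0.524 (edgeR) and 0.561 (DESeq2). Kif3c also overlaps the antisense gene 1110002L01Rik, with which it shares 39.6% of its 50-base stretches, and no label or header says whether counting used strand.

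Kif21a, a kinesin-4 that restrains microtubule growth and is mutated in human congenital fibrosis of the extraocular muscles, was 904 CPM on average. It was 533, 574, 957 and 626 CPM in the Sst or Nppb cells of Blue, Red, Control and Control1, against 1148 ± 231 CPM in Mrgprd cells (SD, n = 6 mice) and 1157 and 1059 CPM in the Mrgpra3 cells of Blue and Red. Control was the high one of the Sst or Nppb group, and the other 3 lay below every Mrgprd and Mrgpra3 value. The difference was −0.54 ± 0.13 in the Sst or Nppb gate (log2, SE; limma adjusted p = 0.00709) and −0.40 ± 0.12 in the Calca and Tac1 gate (adjusted p = 0.0385). In run 1 alone they were −0.66 and −0.42, both past the threshold, and in runs 2 to 4 they were −0.30 (adjusted p = 0.551) and −0.26 (0.761). The first was lost without Blue (adjusted p = 0.13) or Red (0.11) and the second without Blue (0.27), Red (0.32) or Control2 (0.051). Of 18 alternatives in all, 3 lost the first and 12 the second. Those that lost the second included pseudocount 1, thinning, the mean of log2, no replicate block and leaving out cells rich in glial RNA.

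Its paralog Kif21b, a motor of neurons and lymphocytes that also acts on microtubule growth, lay below the level tested. A Kif21b count was found in 16 of 34 Th cells, 4 of 17 Nefh cells, 2 Mrgprd cells (1.85%) and 0 of 81, 44 and 45 cells of the Calca and Tac1, Mrgpra3 and Sst or Nppb gates. If a 0 allows up to 3 cells with a count, those zeros allow shares of up to 3.70%, 6.82% and 6.67%. The limits given below for zeros of Kif26a and Kif23 follow the same rule. The exact binomial intervals drawn for these genes are computed otherwise and reach higher. Both treat the cells as independent. The Th level was 25.6 and 26.8 CPM in Blue and Red, against 0 in all other profiles of these mice and at most 4.29 CPM in any profile of another gate. The 4 mice with 1 or 2 Th cells held 0 to 86.2 CPM there. After thinning to 5000 counts, 5 of 34 Th cells kept a count and no cell of the other gates did. As a gene singled out after its values were seen, Kif21b has no test here. The Schwann and mural cell marker sums were highest in Th cells here too, and their part was not tested. At 1.55% of the Kif21a and Kif21b sum per kb in Th cells it was a minor part of that pair.

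Of the other kinesins, Kif26a was found mainly in the Calca and Tac1 and the Nefh gates. Kif26a is an atypical kinesin without ATPase activity, needed in the mouse for development of the enteric nervous system. It was 30.99, 24.01, 28.9, 0, 50.1 and 57.9 CPM in the Calca and Tac1 cells of Blue, Red, Control, Control1, Control2 and Control6. The Nefh cells of Control held 31.3 CPM. Every profile of the Mrgpra3, Sst or Nppb, Mrgprd and Th gates was between 0 and 1.80 CPM. The value of 0 for Control1 comes from 3 cells. A count was found in 38 of 81 Calca and Tac1 cells and 8 of 17 Nefh cells, against 2 of 44 Mrgpra3 cells, 1 of 45 Sst or Nppb cells, 1 Mrgprd cell (0.926%) and 0 of 34 Th cells, which allows up to 8.82%. The Mrgprd cells were deeper, at a median of 46055 counts against 19621 in Calca and Tac1 cells.

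Kif26a reached the level tested, at a mean of 10.84 CPM over profiles, only through the gates where it was high. Its calls are therefore counted above, in the F test and in the Calca and Tac1 and Mrgprd gates, but its levels stand as a description with no test. Thinned to 5000 counts, 8 of 81 Calca and Tac1 cells and 2 of 16 Nefh cells kept a count, and no cell of the other gates did. Satellite glial RNA was higher in both gates with Kif26a. Within the Calca and Tac1 gate, Kif26a was found in 11 of 26 cells with over 1000 CPM of satellite glial markers (42.3%) and in 27 of the 55 other cells (49.1%). These cells are pooled over mice, and the part of glial RNA in the Kif26a level was not tested. Kif26b averaged 12.7 CPM and Kif2a, a kinesin-13 that takes microtubules apart at their ends, averaged 136 CPM. Neither was past the threshold of the F test by limma (adjusted p = 0.649 and 0.644), and edgeR called both (0.0118 and 0.00531).

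The 11 kinesins of mitosis build and move the spindle of dividing cells, and 9 of them were below the level tested. Kif23, the motor of the central spindle in cytokinesis, had a count in 53 Mrgprd cells (49.1%), 12 of 44 Mrgpra3 cells, 9 of 34 Th cells, 8 of 45 Sst or Nppb cells and 1 of 17 Nefh cells, and in 0 of 81 Calca and Tac1 cells, which allows up to 3.70%. Per mouse it was 12.9 to 31.7 CPM in the Mrgprd cells and 0 CPM in the Calca and Tac1 cells, in 6 of 6 mice each. Thinned to 5000 counts, 10.4% of Mrgprd cells and 0 of 81 Calca and Tac1 cells kept a count. The deepest gate, Nefh, had a count in 1 cell. The 5 markers of dividing cells summed to at most 15.96 CPM in any profile, with a count in 15 cells for Mki67, 20 for Birc5, 2 for Ccnb1 and 1 each for Cdk1 and Top2a.

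Kif23 averaged 18.4 CPM over profiles and fell below the level tested in run 1 alone. It reached that level only through the gates where it was found. Its calls are therefore counted above, but its differences stand as a description with no test. The Calca and Tac1 difference of Kif23 was −1.77 ± 0.45 (log2, SE), and −2.16 in runs 2 to 4 alone. That call was lost without Blue or Red. Its Sst or Nppb difference of 1.44 ± 0.50 rested on Control, whose 175 CPM came from 1 count in a cell of 1427 counts. Without Control the difference was 0.26, and the call was also lost without Blue, Red, Control1 or Control6. Kif22 averaged 10.6 CPM, with 65.1 CPM in the Sst or Nppb cells of Control, and was called by edgeR but not by limma. It too reached the level tested only through its high profiles, so its levels carry no test. Kif2b, Kif4, Kif12, Kif18b and Kif19a had 0 counts in the 371 kept cells, which allows up to 0.220 CPM each.

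**Figure D4:**
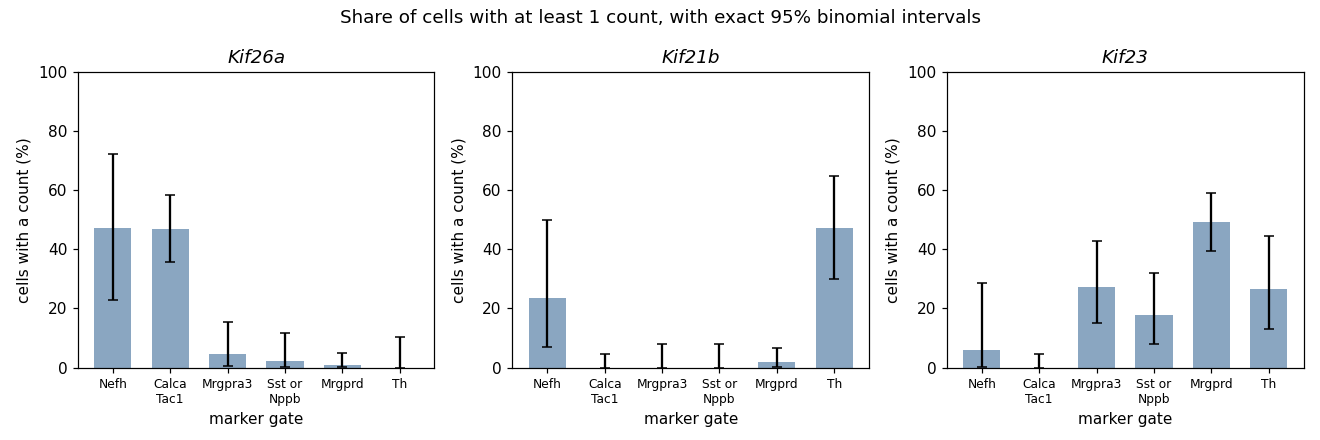
Percent of cells with at least 1 recovered count of Kif26a, Kif21b and Kif23 in each marker gate (bars from 0), with exact 95% binomial intervals that cover counting error over cells only. Kif26a is found in 38 of 81 Calca and Tac1 cells and 8 of 17 Nefh cells, Kif21b in 16 of 34 Th cells, and Kif23 in 53 Mrgprd cells (49.1%) and 0 of 81 Calca and Tac1 cells.

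Cytoplasmic dynein 1 is built on the heavy chain Dync1h1, which carries the motor, with intermediate chains that bind dynactin. Dync1h1 was level, from 431.7 ± 103.8 CPM in Calca and Tac1 cells to 539 CPM in the Nefh cells of Control (limma adjusted p = 0.905, edgeR 0.466). The intermediate chains were not. Dync1i2, the form made by most cell types, was 1109, 1066, 1358, 1316, 1541 and 1059 CPM in the Mrgprd cells of Blue, Red, Control, Control1, Control2 and Control6. It was 555, 621, 515, 819, 455 and 512 CPM in their Calca and Tac1 cells, and 693, 887, 1065 and 926 CPM in the Sst or Nppb cells of Blue, Red, Control and Control1. The remaining profiles held 601 and 660.5 CPM in the Mrgpra3 cells and 506 and 476 CPM in the Th cells of Blue and Red, and 465 CPM in the Nefh cells of Control. Mrgprd values exceeded all others except that Control6, at 1059 CPM, lay just under the Sst or Nppb value of Control, 1065 CPM.

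Dync1i2 differed by 1.05 ± 0.12 in the Mrgprd gate (log2, SE; limma adjusted p = 5.57e-06), with 0.82 in run 1 and 1.09 in runs 2 to 4, both past the threshold. In the Sst or Nppb gate it differed by 0.42 ± 0.13 (adjusted p = 0.0337), 0.23 in run 1 (0.048) and 0.40 in runs 2 to 4 (0.396), which was lost without Blue (0.13), Red (0.27) or Control (difference 0.19, adjusted p = 0.41). Dync1i1, the neuron-enriched form, was 309, 297, 227, 282, 291 and 322 CPM in the Mrgprd cells of the 6 mice in the same order. It was 165, 126.3, 170.0, 211, 45.4 and 192 CPM in their Calca and Tac1 cells, and 156, 144, 55.7 and 126.3 CPM in the Sst or Nppb cells of Blue, Red, Control and Control1. The Mrgpra3 cells of Blue and Red held 197 and 202 CPM, their Th cells 169 and 209 CPM and the Nefh cells of Control 217 CPM. No other profile reached the lowest Mrgprd value.

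The Mrgprd difference of Dync1i1 was 0.82 ± 0.23 (log2, SE; limma adjusted p = 0.0254) and the Sst or Nppb difference −0.88 ± 0.26 (adjusted p = 0.0199). In run 1 alone they were 0.82 and −0.42, both past the threshold, and in runs 2 to 4 they were 1.03 (adjusted p = 0.167) and −1.42 (0.0866). The Mrgprd call was lost without Blue (adjusted p = 0.21) or Red (0.12). The Sst or Nppb call was lost without Blue (0.087), Red (0.13) or Control (difference −0.54, adjusted p = 0.18). Both intermediate chains were thus higher in Mrgprd than in Calca and Tac1 cells in 6 of 6 mice, and their summed level per kb was 231 ± 20 CPM in Mrgprd cells against 112.4 ± 28.6 in Calca and Tac1 cells. In Sst or Nppb cells they went opposite ways, and Dync1i1 made up 24.1 ± 9.9% of the pair there (SD, n = 4 mice), against 35.2 ± 5.5% in Mrgprd cells (n = 6) and 47.1% in Th cells on average over 2 mice. The light intermediate chains Dync1li1 and Dync1li2, which hold cargo adaptors, averaged 77.7 and 304 CPM and did not pass the F test by limma (adjusted p = 0.95 and 0.786) or edgeR (0.476 and 0.635). The cilium motor genes Dync2h1 and Dync2li1, at 23.5 and 27.01 CPM, were not called by limma (adjusted p = 0.386 and 0.690), and edgeR called Dync2li1 (0.0280).

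**Figure D5:**
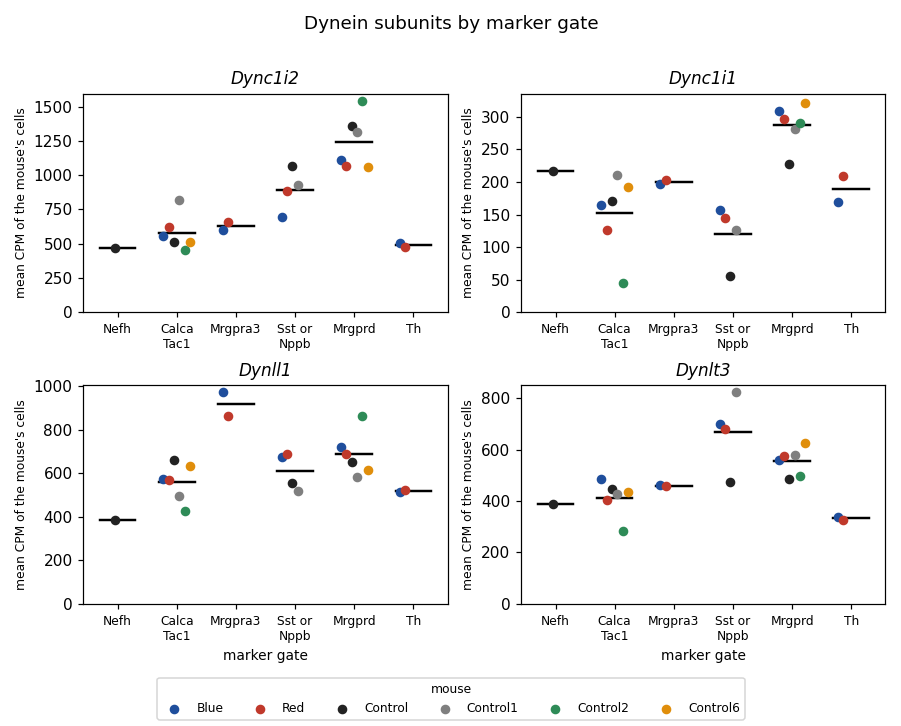
CPM of the dynein intermediate chains Dync1i2 and Dync1i1 and light chains Dynll1 and Dynlt3 (linear axes from 0) in 6 marker gates; each point is the mean over one mouse's cells, coloured by mouse, and the black line is the mean over mice. Dync1i2 lies between 1059 and 1541 CPM in the Mrgprd gate, and Dynll1 is 974 and 864 CPM in the Mrgpra3 gate.

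The dynein light chains bind the tails of the intermediate chains and help to hold the complex together. Dynll1, a light chain that also serves many other proteins, was 974 and 864 CPM in the Mrgpra3 cells of Blue and Red. It was 719, 686, 652, 583, 864 and 614 CPM in the Mrgprd cells and 573, 570.5, 661, 496, 427 and 633 CPM in the Calca and Tac1 cells of Blue, Red, Control, Control1, Control2 and Control6. It was 675, 687, 554 and 517 CPM in the Sst or Nppb cells of Blue, Red, Control and Control1, 513 and 525 CPM in the Th cells of Blue and Red, and 386 CPM in the Nefh cells of Control. The Mrgprd value of Control2 was about the same as the lower Mrgpra3 value, and no other profile reached it. The Mrgpra3 difference was 0.70 ± 0.18 (log2, SE; limma adjusted p = 0.0464), and 0.58 in run 1 alone, past the threshold. It was lost without Blue or Red, which leave 1 mouse in the gate, and without Control (difference 0.58, adjusted p = 0.057) or Control1 (0.053). Pseudocount 1, thinning, the mean of log2 over cells and profiles of at least 1 cell also lost it. The paralog of Dynll1, Dynll2, averaged 668 CPM and was not past the threshold of the limma F test (adjusted p = 0.76). Nor was the roadblock chain Dynlrb1 at 360.3 CPM (adjusted p = 0.33). In run 1 alone that test called Dynll2 (adjusted p = 0.0184) and not Dynlrb1 (0.0713), where 48.6% of all genes were called.

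Dynlt3, a Tctex-type light chain that binds other cargo than Dynlt1, was 700.3, 679, 474 and 823 CPM in the Sst or Nppb cells of Blue, Red, Control and Control1. It was 339 and 325 CPM in the Th cells and 462 and 457 CPM in the Mrgpra3 cells of Blue and Red. Mrgprd cells held 561, 574, 485, 581, 499 and 624 CPM and Calca and Tac1 cells 485, 403, 446, 429, 282 and 437 CPM in Blue, Red, Control, Control1, Control2 and Control6, and the Nefh cells of Control 387 CPM. Of the Sst or Nppb values 3 lay above all other profiles, and both Th values lay below all but the Control2 value of the Calca and Tac1 gate. The Sst or Nppb difference was 0.59 ± 0.13 (log2, SE; limma adjusted p = 0.00247) and the Th difference −0.63 ± 0.17 (adjusted p = 0.0324). In run 1 alone they were 0.63 and −0.67, both past the threshold, and in runs 2 to 4 the first was 0.42 (adjusted p = 0.413). The first was lost without Blue (adjusted p = 0.082) or Red (0.086), and with thinning or the mean of log2 over cells. The second was lost without Blue or Red, which leave 1 mouse in the Th gate. Thinning, the mean of log2, cells in each gate they pass, no replicate block and profiles of at least 1 cell also lost it. Among mice with too few Th cells for the fit, Control6 held 314 CPM of Dynlt3 there and the rest 433 to 560 CPM. The latter lay within the Calca and Tac1 or the Mrgprd range, so the low Th level rests mainly on Blue and Red.

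The 4 Dynlt1 copies could not be told apart. Their coding sequences, 339 bases each in the GENCODE vM21 annotation of GRCm38, sit on chromosome 17: Dynlt1a at 6310876 to 6317400 on the minus strand, Dynlt1b at 6430212 to 6435964 on the plus strand, Dynlt1c at 6601810 to 6607568 on the plus strand and Dynlt1f at 6649270 to 6655800 on the minus strand. Dynlt1a, Dynlt1c and Dynlt1f were identical over that length, and Dynlt1b differed from them at 1 base (99.7% identity). The first 60 coding bases are shown because they hold that base, in capitals.
Dynlt1a: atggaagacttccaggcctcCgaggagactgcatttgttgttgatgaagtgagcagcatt
Dynlt1b: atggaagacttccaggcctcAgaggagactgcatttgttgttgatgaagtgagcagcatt
Dynlt1c: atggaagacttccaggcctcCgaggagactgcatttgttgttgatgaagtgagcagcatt
Dynlt1f: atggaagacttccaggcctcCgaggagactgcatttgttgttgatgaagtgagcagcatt
Most of their deposited values were fractions of a count, so their sum is given: 65.4 ± 27.7 CPM in Mrgprd cells (SD, n = 6 mice), 46.7 ± 29.7 in Calca and Tac1 cells (n = 6) and 45.4 ± 24.3 in Sst or Nppb cells (n = 4). It averaged 71.1 CPM in the Mrgpra3 cells and 53.1 CPM in the Th cells of Blue and Red and was 67.9 CPM in the Nefh cells of Control.

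Dynactin, the activator that ties dynein to its cargo, had all 6 members tested. Dctn1, its large microtubule-binding subunit, was 506 ± 46.2 CPM in Mrgprd cells (SD, n = 6 mice) and 534 ± 31.9 in Mrgpra3 cells (n = 2), against 371 ± 49.8 in Calca and Tac1 cells (n = 6), and passed the F test at an adjusted p of 0.0463 with no gate contrast called (limma). The call was lost without Blue (adjusted p = 0.288), Red (0.487), Control1 (0.0544), Control2 (0.0625) or Control6 (0.0621), and in runs 2 to 4 alone (0.390), while run 1 alone gave 0.0190 and edgeR 3.01e-05. It was higher in Mrgprd than in Calca and Tac1 cells in 6 of 6 mice, by 0.45 ± 0.15 log2 units (SD). Dctn4, a subunit of the pointed end, was 172, 114.6, 88.6 and 189 CPM in the Sst or Nppb cells of Blue, Red, Control and Control1, against 137 to 419 CPM in other profiles. Its Sst or Nppb difference was −0.69 ± 0.18 (log2, SE; limma adjusted p = 0.0108), with −0.65 in run 1, past the threshold, and −0.73 in runs 2 to 4 (0.285). It was lost without Blue (0.086) or Red (0.19). Dctn2, Dctn3, Dctn5 and Dctn6 averaged 361, 295, 161 and 145 CPM and passed neither the F test nor a gate contrast by limma, while edgeR called Dctn5 (F test adjusted p = 0.00102) and Dctn6 (0.00378).

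Kif3a and the Dynlt1 copies, whose values are mostly fractions, were left out of the order of levels per kb of exon over the kept cells, and Kif3a stood at 1536.5 CPM per kb. Among the others the highest were Dynlrb1 at 352 CPM per kb, Dctn3 at 290.0, Klc1 at 281, Dynll2 at 252, Dynlt3 at 189 and Dynll1 at 161. The heavy chains Kif5b, Kif21a, Kif5a and Kif1a stood at 147, 136, 129 and 88.2 CPM per kb, and Dync1h1 was at 29.3. The order per kb rests on the assumption, given above, that counts scale with exon length, which was not tested. In CPM without that division, Dync1h1 stood above Dynlrb1 and Dctn3 and below Klc1, Dynll2, Dynlt3 and Dynll1. Dctn3 and Klc1 overlap the opposite-strand genes Il11ra1 and Xrcc3 in position, but shared 0% of their 50-base stretches with any other gene. Kif2a shared 19.7% of its stretches, most with Dimt1, and Dctn6 9.49% with Gm26768. Klc2 shared 8.71% with AC124502.1 and Dync1li2 5.45% with K230015D01Rik. These 4 partners lie on the opposite strand, and their reads may be counted in part with the members. The members below the level tested averaged at most 9.81 CPM over the kept cells, the value of Kif13b.

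Genes that work with the motors were read from other lists. Of 38 tested motor adaptors and regulators, 9 (23.7%) differed between gates by the F test (limma), against 24.5% of all genes. Fez1, a kinesin-1 adaptor, was 938 ± 17.6 CPM in Th cells (n = 2) and 808 ± 130 CPM in Mrgprd cells (SD, n = 6 mice), against 155 ± 23.7 in Calca and Tac1 cells (n = 6) and 167 ± 43.9 in Sst or Nppb cells (n = 4). Its differences were 1.46 ± 0.22 in the Th gate and 1.33 ± 0.15 in the Mrgprd gate (log2, SE; limma adjusted p = 0.000248 and 3.08e-06). Map7d2, which recruits kinesin-1 to microtubules, was 161 ± 28.9 CPM in Mrgprd cells and 563 ± 215 in Calca and Tac1 cells, and its relative Map7d1 was 67.3 ± 24.1 and 297 ± 127.97 CPM. The kinesin-1 scaffold Mapk8ip1 was 101.8 ± 22.9 CPM in Sst or Nppb cells, against 279 ± 39.98 in Calca and Tac1 cells.

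Tubulins form the tracks on which the motors walk. Of 22 tested tubulins and microtubule-associated proteins, 18 (81.8%) passed the F test (limma), against 24.5% of all genes, though Tubb2a, Tubb2b, Tuba1a and Tuba1b among them carried over 20% fractional values. Tubb4a was 20.8 ± 8.7 CPM in Sst or Nppb cells, against 356 ± 110 CPM in Calca and Tac1 cells and 279 ± 55.4 in Mrgprd cells, a difference of −3.69 ± 0.18 (log2, SE; limma adjusted p = 7.7e-11). Tuba4a was 4.33 ± 6.61 CPM in Mrgprd cells and 188 ± 34.4 in Calca and Tac1 cells, with 374 CPM in the Nefh cells of Control. Map1b, a microtubule-binding protein of axons, was 1779 ± 75.6 CPM in Th cells, against 3409 ± 362 in Mrgprd cells and 5303 ± 440 in Sst or Nppb cells. Stmn1, which sequesters tubulin, was 1326 ± 117.9 CPM in Calca and Tac1 cells and 368 ± 127.8 in Sst or Nppb cells. Of the axonemal dyneins, which beat cilia, 15 were in the tables and 1 reached the level tested, with 0 called (limma).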

How the data were processed

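Single tdTomato-positive cells from 6 mice were profiled by plate-based digital RNA-seq, and each cell is one column. Per the submitters' processing notes, STAR 2.7.3a and mm10 were used, and the values the authors deposited are a signal, each a count multiplied by a factor per cell that is not stated. Dividing each cell's values by the most frequent positive one, refined over its low multiples, recovered counts. Of values up to 20 counts, a median of 96.4% per kept cell were whole within 0.1. For 142 of the 394 columns no recovery of whole counts is claimed. The edgeR, DESeq2 and thinned fits and the shares of cells with a count rest on these counts. CPM was computed without Rn45s (7.42% of counts) and 26 rows with date-like names (0.146%). Cells were averaged per mouse and gate (21 profiles), and log2(mean CPM + 5) was fitted with limma 3.58.1 (R 4.3.3), mouse as a block, with Benjamini-Hochberg adjustment over 9169 genes. edgeR 4.0.16, DESeq2 1.42.0 and other settings were alternatives. The limma fit was also run on simulated counts with 200 genes changed in the Th gate alone. Those counts held no mouse effect, so that run cannot speak for the mouse block or for changes in other gates. The mice are the replicates, and each mouse supplied cells to several gates, so mouse was kept as a block. The block takes out differences shared by all gates of a mouse. With it, p-values rest on the remaining spread of gate differences between mice, pooled over the gates. The Nefh gate, with 1 mouse, adds no spread of its own. Cells passing no gate (28) or several (14) were left out, and no doublet caller was run. Named with values were members past the F test or a gate contrast, 16 members whatever their values, and up to 4 genes of each other list by smallest p. Others, such as Kif21b, Kif1c and Kif16b, were chosen after their values were seen. Members and lists were chosen with earlier results of these data known.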

Additional observations from a re-analysis of the deposited data

Results flagged for a closer look

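The highest or lowest mouse of a gate was compared with the rest by Dixon's criterion for the named members in the gates of 4 or 6 mice, 63 checks in all. It flagged 14, and chance flags about 1 in 20. In the Calca and Tac1 gate Control2, with 3 cells, was low for Dync1i1 (45.4 CPM, the others 126.3 to 211), Dynlt3 (282 CPM, the others 403 to 485), Klc1 (585 CPM, the others 1044 to 1173) and Klc2 (25.96 CPM, the others 74.1 to 110). Control was high for Kif5b (664 CPM, the others 429 to 499), Control6 low for Kif5c (141 CPM, the others 256 to 329.7) and Control1 low for Kif26a (0 CPM, the others 24.01 to 57.9), also with 3 cells each.

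In the Sst or Nppb gate Control, with 4 cells, was low for Kif1a (679 CPM, the others 859.7 to 884) and Kif5b (1044 CPM, the others 1613 to 1691). Control1 was low for Dynll2 (269 CPM, the others 664 to 741), and Blue held 1.80 CPM of Kif26a where the others had 0. In the Mrgprd gate Control was high for Kif1a (1198 CPM, the others 863 to 949.9), Control2 high for Dctn4 (269.8 CPM, the others 209 to 225), and Blue held 0.354 CPM of Kif26a where the others had 0.

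Outside the kept cells, the 23 columns with under 500 genes held 51.8 recovered counts of the members, of 1545 counts in all, above the 3 counts that a count of 0 allows. They lay in 8 of the 23 columns.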

How the results depend on the processing

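Of the 21 gate differences of single members, none changed sign over the alternatives tried: 241 of 359 refits stayed past the threshold and the rest did not. 3 differences were past it under all of them (Kif5b in the Mrgprd and the Calca and Tac1 gates, Dync1i2 in the Mrgprd gate), and 5 without each mouse in turn. Mouse Blue and mouse Red each ended 16 calls when left out, Control 6, Control1 3, Control6 2 and Control2 1. In the order any gate difference, Nefh, Calca and Tac1, Mrgpra3, Sst or Nppb, Mrgprd, Th, the reported counts of members were 10, 0, 4, 1, 9, 5 and 2. edgeR gave 22, 3, 13, 6, 9, 17 and 8 and DESeq2 20, 3, 9, 4, 8, 17 and 5, where edgeR called 54.1%, 14.5%, 24.2%, 18.7%, 26%, 31.3% and 24.6% of all genes and DESeq2 44.5%, 6.95%, 18.6%, 13.1%, 22.3%, 24.7% and 18.8%. Thinning to 5000 counts gave 4, 0, 1, 0, 3, 2 and 0. It called 10.5%, 0.255%, 3.06%, 0.277%, 5.55%, 3.95% and 1.34% of all genes. Mice of run 1 alone gave 20, no Nefh value, 11, 5, 10, 8 and 11, and mice of runs 2 to 4 gave 3, 0, 1, no Mrgpra3 value, 2, 2 and no Th value. Any gate difference was called for 48.6% of all genes in run 1 and 7.96% in runs 2 to 4. By gate, run 1 called 22.7% of all genes in Calca and Tac1, 18.1% in Mrgpra3, 33.5% in Sst or Nppb, 19.4% in Mrgprd and 35.1% in Th. Runs 2 to 4 called 0.13% in Nefh, 1.5% in Calca and Tac1, 3.86% in Sst or Nppb and 4.52% in Mrgprd. Leaving out 1 mouse at a time gave 3 to 10, 0 to 0, 1 to 4, 0 to 1, 1 to 9, 2 to 6 and 1 to 3, with 11% to 25.7% of all genes called for any gate difference. The same fits called 3.27% to 13% of all genes in Calca and Tac1, 6.64% to 22.8% in Sst or Nppb and 5% to 12.2% in Mrgprd. Where Blue and Red both stayed, they called 2.33% to 3.46% in Mrgpra3 and 6.77% to 10.6% in Th. Without the low-value filter Nefh had 1 (8.7% of all genes) and Mrgpra3 3 (5.03%). Cells in each gate they pass gave Nefh 1 (6.35% of all genes), Mrgpra3 2 (5%), Mrgprd 9 (15%) and Th 1 (5.13%). The mean of log2 gave Mrgpra3 0 (2.69%), Mrgprd 3 (12%) and Th 1 (6.41%), and pseudocount 1 gave Mrgpra3 0 (1.52%). Without cells rich in glial RNA, Calca and Tac1 had 2 (10.2% of all genes) and Th 4 (9.11%). Profiles of at least 1 cell, chosen after seeing the data, gave Nefh 3 (8.65%), Calca and Tac1 1 (8.41%) and Th 4 (19.5%). The fit with no replicate block, unpaired over mice, gave 9 any-gate calls (23.6% of all genes) and Th 1 (7.01%). The cause of these shifts was not tested, beyond fewer mice or counts in some.

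CPM set the median of all genes in the Sst or Nppb gate at −0.17 and edgeR's scaling at −0.04. With it, 32.9% of all genes called there were higher in CPM and 49.4% in edgeR, against 55.4% and 68.6% for Nefh and, with DESeq2, 46.6% and 56.8% for Th. The Nefh gate rests on 1 mouse and the Mrgpra3 and Th gates on 2, so their calls say little about mice in general. Intervals cover counting error only.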

Other observations

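The 28 kept cells that passed no gate belong to no comparison above. Their median Kif5c was 531 CPM, against 284 CPM over the 329 gated cells, and their median Kif5b 797 CPM against 1178 CPM. Kif5a was 875 CPM against 914 CPM, and Dync1i2 622 CPM against 741 CPM. These medians are over cells of different mice and depths and carry no test.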
